A study of Mus musculus with 4 samples.

Results

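The genes described here are 9 genes by which alveolar type 2 cells of the lung are known, Sftpc, Sftpb, Sftpa1, Sftpd, Lamp3, Slc34a2, Napsa, Abca3 and Cxcl15. They were taken by their symbols from the 19465 genes of the spatial assay. Of the 9 genes, 8 were measured, and Sftpb was not analysed here. Sections of the primary tumour (PT) and of the lung came from 2 BALB/c mice, Mouse_627 and Mouse_628, with 1 section of each tissue per mouse. At 8 weeks of age both animals had received 100000 cells of 4T1, a metastatic line derived from a mammary carcinoma of this strain, in the mammary fat pad, and they were sacrificed 28 days later. No section of a mouse without tumour cells is among the samples, so every lung is that of a tumour-bearing animal. The Visium assay for paraffin sections hybridises probe pairs to the RNA of each gene and counts them, by unique molecular identifiers (UMIs), at the barcoded spots of a slide. Spots are wider than a cell, so neighbouring cells of unlike types can share one, and spots are not replicates. The labels name 2 animals and no further replicates.

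Type 2 cells make pulmonary surfactant, a film of phospholipids and a few proteins that lowers the surface tension of the alveoli. Its lipids and hydrophobic proteins are assembled and stored in lamellar bodies, secreted, and taken up again by type 2 cells or cleared by alveolar macrophages. Type 2 cells are also the progenitors of the flat alveolar type 1 cells, and the factor NKX2-1 drives many of their genes.

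Keeping spots in which over 200 genes were detected left 1697 spots in the lung of Mouse_627, 2780 in the lung of Mouse_628, 2490 in the PT of Mouse_627 and 2372 in the PT of Mouse_628. Total depth ran from 10890154 to 30240176 UMIs per section, and the median spot held 6555 and 9174.5 UMIs in the lungs of Mouse_627 and Mouse_628 and 2931 and 1820 UMIs in their PT. The 3 genes used to mark tumour in the lung, Csf3, Mmp3 and Hmga2, took 54.5 of each 1000000 UMIs (CPM) in the lung of Mouse_627 and 736 CPM in that of Mouse_628, against 3513 and 4418 CPM in the PT. The lungs thus differed in the level of these genes, with 19.6% of spots holding a UMI of these genes in Mouse_627 and 82.8% in Mouse_628. Intervals given below are 95% intervals that cover counting error only.

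In the mouse genome build GRCm38 (mm10), Sftpc lies on the minus strand at chr14:70520949-70524081. Sftpa1 (chr14:41131782-41136452, plus strand) and Sftpd (chr14:41172214-41185149, minus strand) are neighbours on the same chromosome. Lamp3 lies at chr16:19653378-19706375 on the minus strand. The remaining measured genes are on the plus strand, Slc34a2 at chr5:53038081-53071664, Cxcl15 at chr5:90794534-90803067, Napsa at chr7:44572380-44586862 and Abca3 at chr17:24351950-24410201. RefSeq promoters (GRCm38.p6) could be matched by symbol to 6 of the 9 genes, not to Sftpc, Sftpd and Napsa. The 250 bases upstream of the RefSeq start are printed for 4 genes that fall into unlike kinds of promoter and that differ below in how they vary, with every CG pair in capitals. They lie at chr14:41131538-41131787 for Sftpa1, chr5:90794284-90794533 for Cxcl15, chr5:53049103-53049352 for Slc34a2 and chr17:24351773-24352022 for Abca3, each on the plus strand and written 5′ to 3′. The window of Slc34a2 lies inside the annotated locus given above, since its RefSeq start is downstream of the annotated one. The windows of Abca3 and Sftpa1 also run past the annotated starts, so their last bases lie inside the loci.
Sftpa1: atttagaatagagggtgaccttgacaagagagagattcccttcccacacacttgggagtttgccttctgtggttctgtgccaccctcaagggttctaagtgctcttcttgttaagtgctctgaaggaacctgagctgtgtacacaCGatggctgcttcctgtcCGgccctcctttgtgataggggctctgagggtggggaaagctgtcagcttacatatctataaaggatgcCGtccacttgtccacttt
Cxcl15: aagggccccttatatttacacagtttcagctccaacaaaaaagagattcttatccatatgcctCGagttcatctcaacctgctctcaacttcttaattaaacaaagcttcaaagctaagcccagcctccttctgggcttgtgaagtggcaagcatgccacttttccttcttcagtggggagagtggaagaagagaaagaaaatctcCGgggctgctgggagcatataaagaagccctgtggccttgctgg
Slc34a2: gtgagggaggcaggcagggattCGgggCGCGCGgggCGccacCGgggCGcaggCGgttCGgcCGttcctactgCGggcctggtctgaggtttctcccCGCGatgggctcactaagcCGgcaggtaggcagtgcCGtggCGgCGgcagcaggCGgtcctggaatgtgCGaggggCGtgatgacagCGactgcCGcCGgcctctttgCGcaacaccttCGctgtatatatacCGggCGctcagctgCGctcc
Abca3: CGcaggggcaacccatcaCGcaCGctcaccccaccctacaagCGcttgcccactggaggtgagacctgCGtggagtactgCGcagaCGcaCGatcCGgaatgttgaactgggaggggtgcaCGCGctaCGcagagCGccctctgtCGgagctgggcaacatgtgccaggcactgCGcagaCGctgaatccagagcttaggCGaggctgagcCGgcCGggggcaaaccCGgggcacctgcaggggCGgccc
The windows of Sftpa1 and Cxcl15 hold 3 and 2 CG pairs, and 71.0% and 81.2% of 32851 promoters of the same length hold as many or more. Those of Slc34a2 and Abca3 hold 28 and 21 CG pairs, which 7.61% and 16.3% of promoters reach, against a median of 6. The window of Lamp3 holds 0 and that of Sftpb 7. On either strand, the letters CTCAAG, a core of NKX2-1 sites, begin at position -166 from the start in Sftpa1 and at -100 and -15 in Sftpb, and are not in the windows of Lamp3, Slc34a2, Abca3 and Cxcl15. They occur in 13.3% of all promoters. TGTTTNC, a core of FOXA sites, has 2 matches in Lamp3 and 1 in Sftpb and occurs in 17.8% of promoters, and TTGCNNAA, a C/EBP half-site pair, has 1 match in Slc34a2 and occurs in 9.56%. No matches of different motifs overlapped.

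The first comparison asked how far the surfactant and type 2 genes separate the lung from the PT of the same mice. By edgeR's quasi-likelihood test on the UMIs of each section, 8 of 8 measured genes were called higher in the lung, where 6.31% of all genes were. Together they took 12417 CPM in the lung of Mouse_627 and 7259 CPM in that of Mouse_628, against 54.7 and 76.1 CPM in the PT. By role, the genes fall into secreted proteins (Sftpc, Sftpa1, Sftpd, Cxcl15), proteins of the lamellar body (Lamp3, Abca3, Napsa) and a transporter of the cell surface (Slc34a2). Each probe pair captures with its own efficiency, so levels are compared between sections and not between genes.

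Sftpc, the hydrophobic surfactant protein made by type 2 cells alone, had 9985 CPM (9926 to 10044) in the lung of Mouse_627, 5766 CPM (5738 to 5793) in the lung of Mouse_628, 0.296 CPM in the PT of Mouse_627 and 7.44 CPM in the PT of Mouse_628. It was found in 99.4% and 99.6% of lung spots and supplied 80.4% and 79.4% of the UMIs of the 8 genes in the lungs. Sftpa1 encodes surfactant protein A, a collectin that binds microbes, and had 801 and 534 CPM in the lungs of Mouse_627 and Mouse_628, against 0.296 and 6.52 CPM in their PT. Its collectin relative Sftpd had 103 and 102 CPM in the lungs, the closest agreement between the mice among the 8 genes, and 0.296 and 6.24 CPM in the PT. Cxcl15, a chemokine of mouse lung epithelium also called lungkine, had 617 and 336 CPM in the lungs. Cxcl15 was the only one of the 8 genes with 0 UMIs in both PT sections, which allows up to 0.222 CPM in Mouse_627 and 0.275 CPM in Mouse_628. For each of these secreted proteins the lung of Mouse_627 had a higher level than that of Mouse_628, for Sftpd by less than the counting error.

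Lamp3, a membrane protein of lamellar bodies that is also made by mature dendritic cells, had 202 and 108 CPM in the lungs of Mouse_627 and Mouse_628 and 0.443 and 7.07 CPM in their PT. Napsa encodes napsin A, a protease that trims the precursor of surfactant protein B. It was sparse, at 16.8 and 11.2 CPM in the lungs and 1.85 and 2.57 CPM in the PT, and 10.5% and 11.1% of lung spots had a UMI of it. Slc34a2, the phosphate transporter that recovers phosphate from used surfactant, had 527 and 270 CPM in the lungs and 1.18 and 6.70 CPM in the PT. Abca3 pumps phospholipids into the lamellar body, and it differed from the other 7 genes in that the PT held it too: 165 and 133 CPM in the lungs stood against 50.3 and 39.6 CPM in the PT. In the PT, 20.6% of spots of Mouse_627 and 12.9% of Mouse_628 had an Abca3 UMI.

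**Figure D1:**
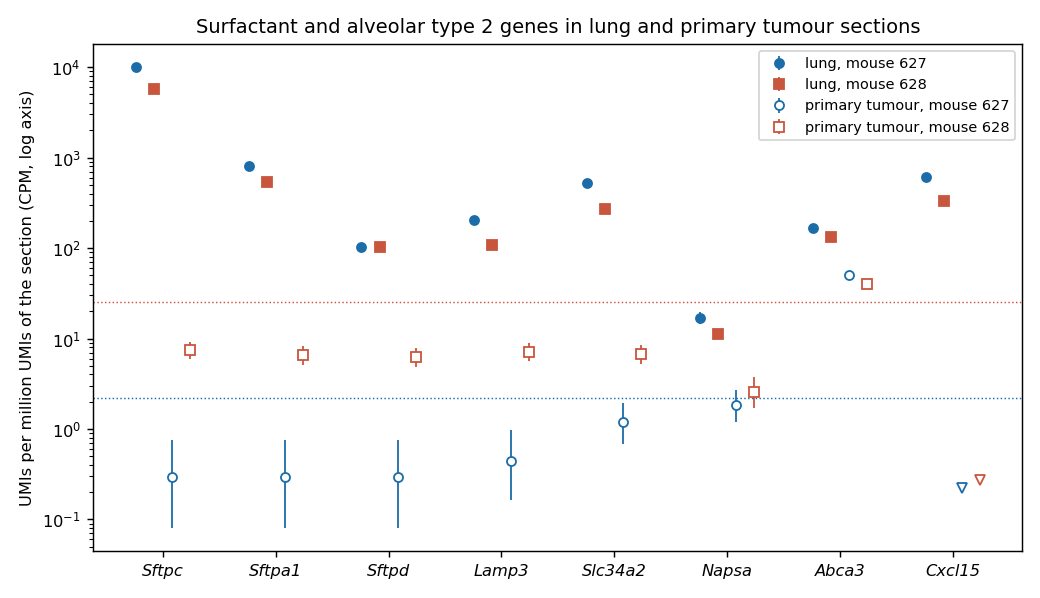
CPM of the 8 measured genes (log axis) in the 4 sections, with filled symbols for lung, open symbols for primary tumour, circles for Mouse_627, squares for Mouse_628 and bars for the exact 95% Poisson interval. Triangles stand at 3 counts for Cxcl15, which had 0 UMIs in both primary tumours, and dotted lines mark the CPM that 2.5% of 1178 olfactory and vomeronasal receptor genes exceed in the primary tumour of each mouse, lines above which Abca3 alone lies in both primary tumours.

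The test had n = 2 sections per tissue, with Benjamini-Hochberg adjustment over 15267 genes. The log2 fold change of lung over PT was 11.39 for Sftpc (standard error 1.5, adjusted p = 0.00495 by edgeR), 8.01 for Sftpa1, 7.05 for Slc34a2, 5.77 for Lamp3, 5.34 for Sftpd, 3.0 for Napsa (adjusted p = 0.0383 by edgeR) and 2.04 for Abca3 (standard error 0.39, adjusted p = 0.0160 by edgeR). Within mice, Abca3 was 3.28-fold (3.0 to 3.58) higher in the lung of Mouse_627 and 3.37-fold (3.05 to 3.73) in that of Mouse_628, and Napsa 9.10-fold (5.98 to 14.4) and 4.37-fold (2.97 to 6.68). The folds of the remaining genes differed far more between the mice, with 33779-fold (13193 to 123978) and 775-fold (624 to 976) for Sftpc, 2709-fold and 82.0-fold for Sftpa1, 446-fold and 40.3-fold for Slc34a2, 455-fold and 15.2-fold for Lamp3 and 349-fold and 16.3-fold for Sftpd. Cxcl15 was at least 2785-fold and 1218-fold higher, taken against 3 counts per PT section. With the mouse as a block 8 of 8 genes were called as well, where 9.17% of all genes were. With library sizes in place of TMM factors, 5 of 8 genes were called, where 1.85% of all genes were, and Sftpd, Lamp3 and Napsa had adjusted p-values of 0.0694, 0.0589 and 0.116 by edgeR. Both tissues come from the same animals and n = 2, so no permutation of the labels could reach 0.05.

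The few UMIs of most of these genes in the PT were at the level of genes that neither tissue should express. In the PT of Mouse_628, 1178 olfactory and vomeronasal receptor genes had a median of 72 UMIs each (2.5% of them above 277), beside 81 UMIs of Sftpc, 71 of Sftpa1, 68 of Sftpd, 77 of Lamp3, 73 of Slc34a2 and 28 of Napsa. In the PT of Mouse_627 the median was 8 UMIs (2.5% of them above 30), beside 4 of Sftpc, 4 of Sftpa1, 4 of Sftpd, 6 of Lamp3, 16 of Slc34a2 and 25 of Napsa. Sftpc had 111060 and 174350 UMIs in the lungs beside 1148 and 3073 of Sftpd, whereas in the PT the UMIs of both genes were nearly equal in number. Levels of Sftpc, Sftpa1, Sftpd and Lamp3 in the PT are therefore read as background, and their folds as set by it. Slc34a2 and Napsa differed between the mice. Their counts were reached by 587 and 1110 receptor genes in Mouse_628, but by 139 and 53 in Mouse_627. Whether their PT levels are background was not tested. Abca3 stood apart, with 681 and 431 UMIs, which 1 and 4 receptor genes reached. Over 4 equal groups of PT spots by rising share of Csf3, Mmp3 and Hmga2, Abca3 had 54.3, 48.0, 55.4 and 45.3 CPM in Mouse_627 and 41.4, 41.9, 39.1 and 38.8 CPM in Mouse_628, with intervals that overlap between the lowest and the highest group.

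The second comparison followed the genes across lung spots of rising tumour gene share. For each spot the UMIs of Csf3 (granulocyte colony-stimulating factor, which 4T1 cells secrete), Mmp3 (a matrix-degrading protease) and Hmga2 (a chromatin protein of embryonic and tumour cells) were divided by all its UMIs. Bin 0 holds the spots with no such UMI, and bins 1 to 4 divide the remaining spots of both lungs into 4 equal groups, with limits at 215, 447 and 908 CPM. The lung of Mouse_627 has 1364, 184, 96, 42 and 11 spots in bins 0 to 4, and that of Mouse_628 has 479, 475, 562, 616 and 648. Bin 4 of Mouse_627 therefore rests on 52639 UMIs, against 10732560 in Mouse_628.

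From bin 0 to bin 4 the 8 genes together went through 12617, 12041, 11602, 10647 and 9689 CPM in the lung of Mouse_627, 1.30-fold (1.19 to 1.42) lower in bin 4 than in bin 0. Without Sftpc it was 1.07-fold (0.89 to 1.29), an interval that includes no change. Sftpc alone was 1.38-fold (1.24 to 1.52) lower, the intervals overlap, and the difference was not tested. In the lung of Mouse_628 they went through 11202, 11701, 10585, 6972 and 3053 CPM, 3.67-fold (3.61 to 3.73) lower in bin 4 than in bin 0. On the CPM scale the lungs were thus nearer to each other in bin 0 than in bin 4. In Mouse_628, 50.2% (46.2% to 54.1%) of bin 4 spots had under 2000 CPM of the 8 genes, against 4.18% (2.57% to 6.38%) of bin 0 spots, and in Mouse_627 it was 2 of 11 spots against 2.64% (1.86% to 3.64%). Of these 11 spots the 6 shallower, with a median of 1552 UMIs, had 8187 CPM and the 5 deeper 10026 CPM. The lowest spot had 960 CPM of the 8 genes and 960 CPM of the tumour genes, near the bin limit of 908 CPM. Even in bin 4 of Mouse_628 the median spot held 1986 CPM, against 0 CPM in the median PT spot of either mouse, and 99.2% of these spots had a UMI of Sftpc. CPM are shares of all UMIs, and spots of bin 4 in Mouse_628 held a mean of 16563 UMIs against 5742 in bin 0. Counted per spot, the 8 genes in bin 4 were at 0.786 of their bin 0 level (0.774 to 0.798). Fewer type 2 cells in a spot and less of these RNAs per type 2 cell cannot be told apart in such spots. The part of the larger total was not tested.

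**Figure D2:**
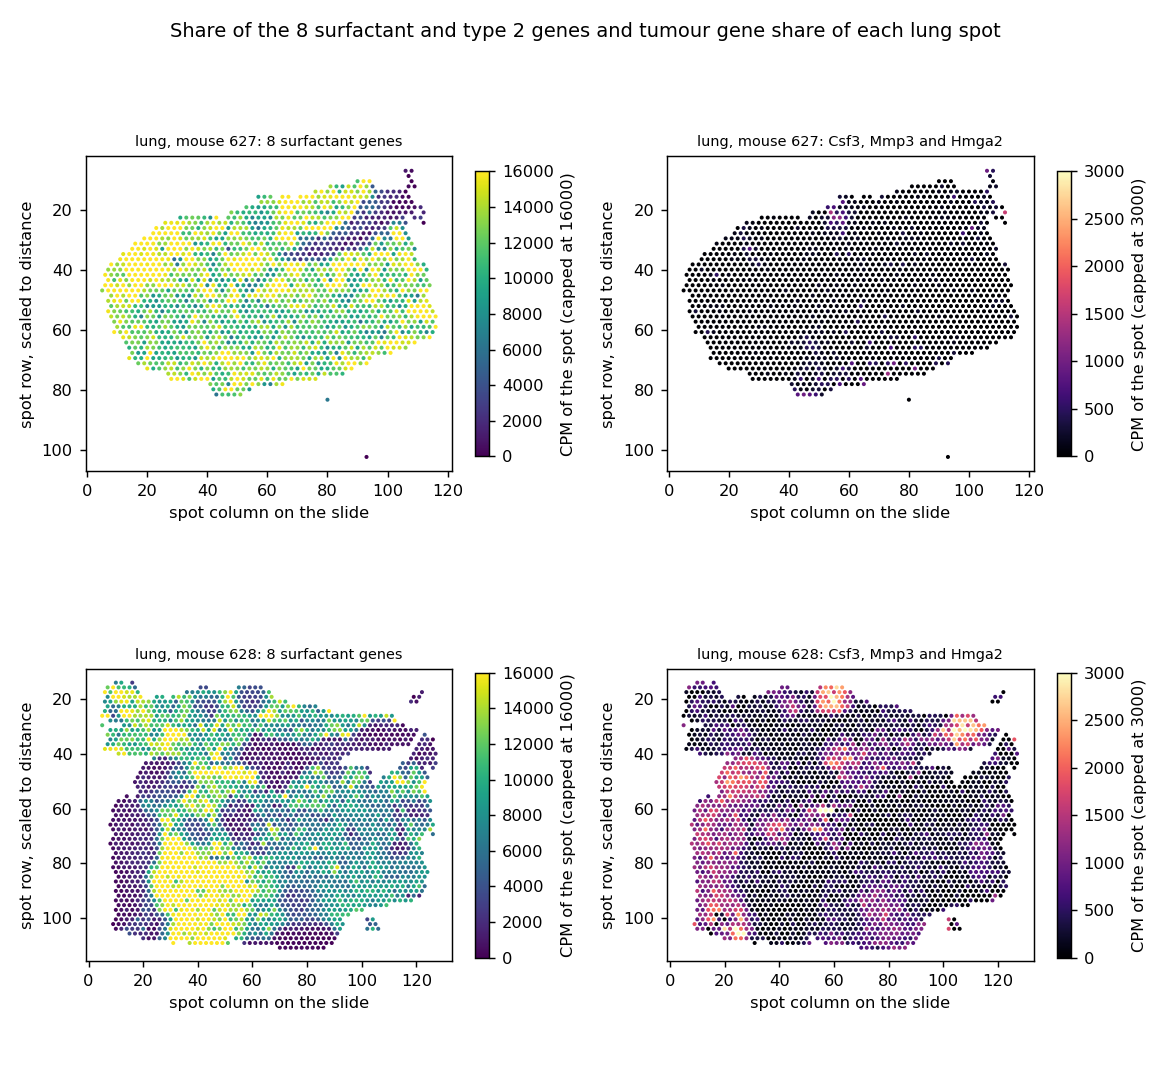
Each point is a kept lung spot at its place on the slide (column and scaled row), coloured by the CPM of the 8 surfactant and type 2 genes (left) or of Csf3, Mmp3 and Hmga2 (right), for Mouse_627 (top) and Mouse_628 (bottom), with the colours capped at the top of each scale. In Mouse_628 patches rich in tumour genes coincide with patches poor in the 8 genes, while Mouse_627 has 1 stripe poor in the 8 genes with few tumour gene UMIs.

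Sftpc was lower at each of 4 steps in Mouse_627, through 10188, 9568, 9166, 8333 and 7409 CPM. In Mouse_628 it went through 8888, 9268, 8410, 5585 and 2403 CPM. Its share of the UMIs of the 8 genes hardly moved, from 80.8% to 76.5% in Mouse_627 and from 79.3% to 78.7% in Mouse_628. Sftpa1 went from 811 to 703 CPM in Mouse_627, with overlapping intervals, and through 828, 884, 805, 497 and 213 CPM in Mouse_628, 3.88-fold (3.66 to 4.12) lower in bin 4 than in bin 0. Sftpd went from 102 to 133 CPM in Mouse_627, where bin 4 held 7 of its UMIs, and from 161 to 47.3 CPM in Mouse_628. Cxcl15 went through 589, 717, 740, 625 and 741 CPM in Mouse_627 and through 550, 559, 499, 311 and 128 CPM in Mouse_628. In Mouse_627 the log2 ratio of bin 4 over bin 0 was 0.33 (-0.16 to 0.78), which includes no change, whereas in Mouse_628 it ended 4.30-fold (3.99 to 4.63) lower.

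Lamp3 had 202 CPM in bin 0 and 114 CPM in bin 4 of Mouse_627, from 6 UMIs in the latter, and went through 171, 178, 156, 102 and 43.6 CPM in Mouse_628. Slc34a2 went from 543 to 399 CPM in Mouse_627 and from 401 to 121 CPM in Mouse_628. Napsa had 18.2 CPM in bin 0 of Mouse_627 and 0 UMIs in bin 4, which allows up to 57.0 CPM, and went from 19.3 to 4.01 CPM in Mouse_628, 4.81-fold (3.16 to 7.37) lower in bin 4 than in bin 0. Abca3 was the gene with the smallest decrease in Mouse_628, from 183 to 92.3 CPM, or 1.98-fold (1.78 to 2.21), and went from 163 to 190 CPM in Mouse_627, with 10 UMIs in bin 4. Its interval in Mouse_628 does not meet that of any of the other 7 genes, which ended between 3.30-fold and 4.81-fold lower. From bin 0 to bin 4 of Mouse_628 Abca3 thus went from 1.64% to 3.02% of the UMIs of the 8 genes. In all, 25 of 32 steps between neighbouring bins were downward in Mouse_628 and 20 of 32 in Mouse_627, and from bin 1 on every gene went down at each of 3 steps in Mouse_628.

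**Figure D3:**
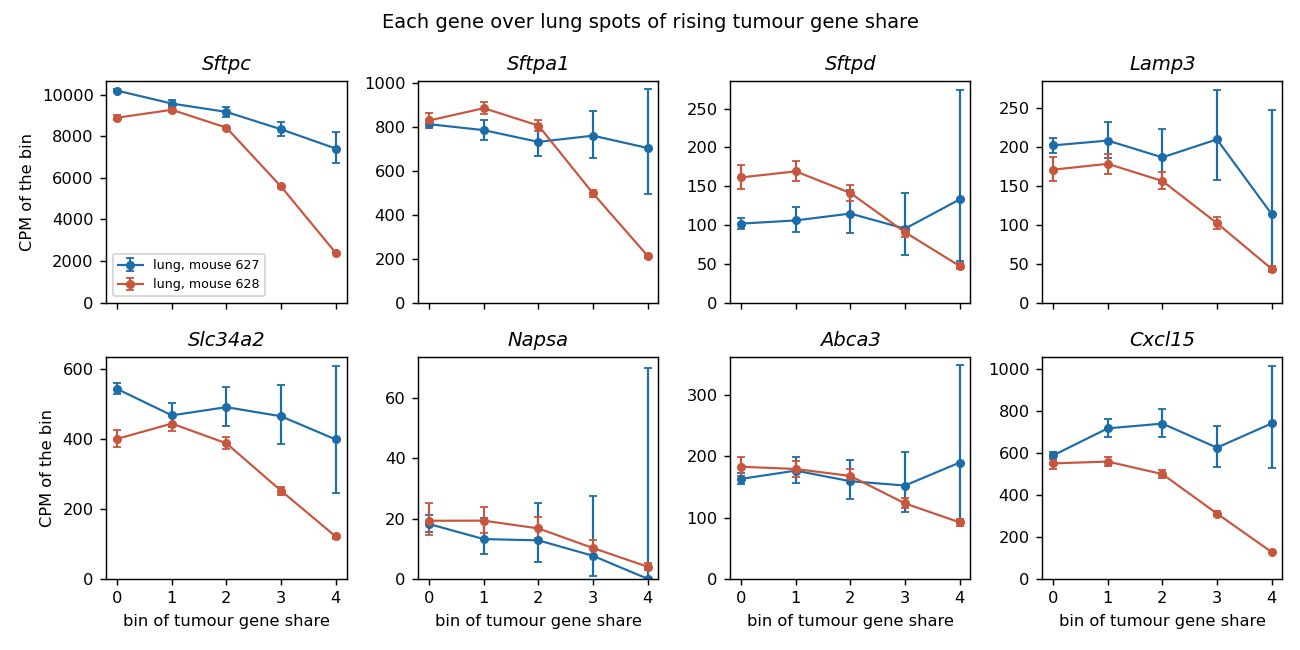
CPM of each of the 8 genes in the lung spots of bins 0 to 4 of tumour gene share, for Mouse_627 (blue) and Mouse_628 (red), with bars for the exact 95% Poisson interval of each bin. In Mouse_628 all 8 curves go down from bin 1 to bin 4, that of Abca3 least, and in Mouse_627 the bars of bin 4, from 11 spots, are wide.

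Sums of bin 4 and bin 0 were compared by edgeR's quasi-likelihood test (n = 2 lungs per bin, Benjamini-Hochberg adjustment over 12664 genes). Of the 8 genes, 4 were called lower in bin 4, where 22.5% of all genes were. These were Lamp3 (log2 fold change -2.14, standard error 0.40, adjusted p = 0.00261 by edgeR), Napsa (-2.48, adjusted p = 0.00343 by edgeR), Sftpd (-1.48, adjusted p = 0.0161 by edgeR) and Slc34a2 (-1.53, adjusted p = 0.0322 by edgeR). Values for the others were -1.37 for Sftpa1, -1.33 for Sftpc, -1.05 for Cxcl15 and -0.93 for Abca3, with adjusted p-values of 0.0540, 0.161, 0.205 and 0.0567 by edgeR. In bin 4 of Mouse_627 the 4 called genes had 6, 0, 7 and 21 UMIs, and these others 37, 390, 39 and 10. Within the lungs the log2 ratio of Lamp3 was -0.83 in Mouse_627 and -1.97 in Mouse_628, each smaller in size than in the fit. A call here is thus no measure of agreement between the lungs. Both bins come from the same lung, and with the mouse as a block 7 of the 8 genes were called lower, where 22.7% of all genes were, while Sftpc had -1.5 (standard error 1.05, adjusted p = 0.264 by edgeR). Without the block, Sftpc was called lower with no gene filter (-1.29, adjusted p = 0.0300 by edgeR). It was also called with spots thinned (-2.49, adjusted p = 0.0210 by edgeR), which left 1 spot in bin 4 of Mouse_627. Over the 8 genes the median log2 fold change was -1.42, against -0.07 over all genes tested. The calls turn on how spots are binned: with 4 equal groups drawn within each lung 0 of the 8 genes and 0 of all genes were called by edgeR (1 and 2888 at an unadjusted p under 0.05). DESeq2 called Lamp3 alone, where 2.6% of all genes were called lower, and without the lung of Mouse_628 the log2 ratios of 3 genes were positive, 0.38 for Sftpd, 0.33 for Cxcl15 and 0.22 for Abca3.

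Spots of bin 4 were deeper in Mouse_628, with a median of 15637 UMIs against 5569 in bin 0, and shallower in Mouse_627, with 3126 against 6346. Counted per spot and not as CPM, the 8 genes had 64.3, 105, 99.1, 82.0 and 50.6 UMIs in bins 0 to 4 of Mouse_628, and 79.4, 104, 75.8, 66.5 and 46.4 UMIs in Mouse_627. On this scale the decrease from bin 0 to bin 4 in Mouse_628 was to 0.786 of the level (0.774 to 0.798), much smaller than on the CPM scale, and that from bin 1 was to 0.483 (0.476 to 0.490). In Mouse_627 the decrease from bin 0 was to 0.584 (0.534 to 0.637), larger than on the CPM scale and larger than in Mouse_628. The order of the lungs thus turns round between the scales. The bin rule itself ties depth to bin, since 1 tumour gene UMI is a small share of a deep spot and a large share of a shallow one. Values per spot, among them the peak in bin 1, carry this tie, and its size was not tested. Abca3 went on this scale from 1.05 to 1.53 UMIs per spot in Mouse_628, a ratio of 1.45 (1.30 to 1.62). Among spots of like depth, those with 6000 to 10000 UMIs, the 8 genes had 93.6, 90.8, 82.8, 66.0 and 26.2 UMIs per spot in bins 0 to 4 of Mouse_628 (93 to 258 spots a bin). In Mouse_627 such spots had 100.02, 95.8, 84.6, 88.0 and 73.3 UMIs per spot, the last from 4 spots. With depth held in so narrow a range, these values follow the CPM. With each spot thinned to 2000 UMIs before binning, the log2 ratio of bin 4 over bin 0 was -1.73 in Mouse_628 (-1.81 to -1.65).

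**Figure D4:**
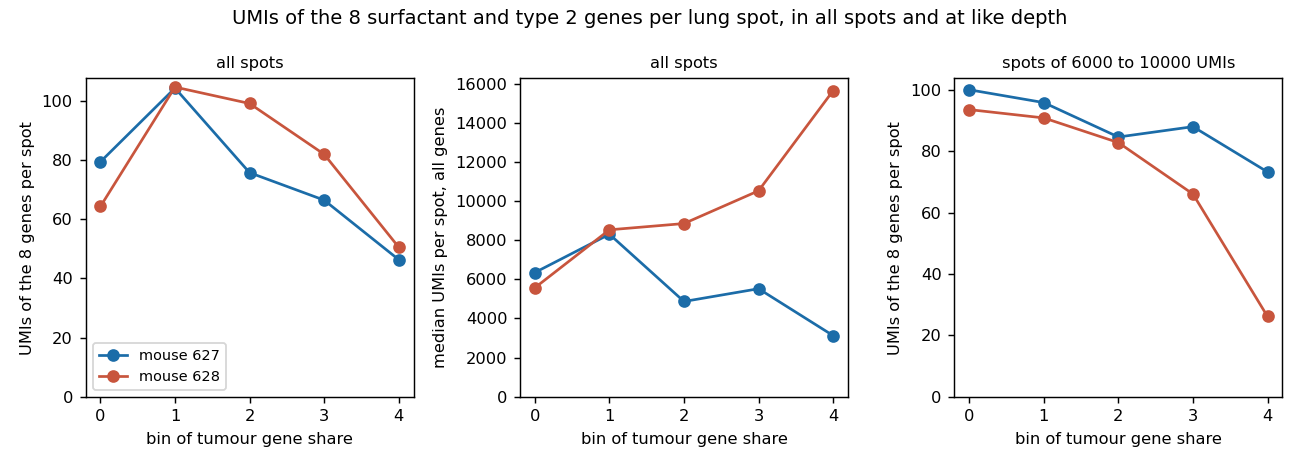
Mean UMIs of the 8 genes per lung spot (left), median UMIs of all genes per spot (middle) and mean UMIs of the 8 genes in spots of 6000 to 10000 UMIs (right), by bin of tumour gene share, for Mouse_627 (blue) and Mouse_628 (red). In Mouse_628 depth rises from 5569 to 15637 UMIs over the bins, and at like depth the 8 genes go from 93.6 to 26.2 UMIs per spot.

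Over spots, the CPM of the 8 genes and the tumour gene share had a Spearman rho of -0.06 in the lung of Mouse_627 (1697 spots) and -0.53 in that of Mouse_628 (2780 spots). Spots of a section share library, neighbours and the total by which both are divided, so these values are a description. For single genes the rho with tumour gene share in Mouse_628 was -0.52 for Sftpc, -0.45 for Sftpa1, -0.37 for Cxcl15, -0.35 for Slc34a2, -0.26 for Lamp3, -0.24 for Sftpd, -0.16 for Abca3 and -0.07 for Napsa. In Mouse_627 the values lay between -0.07 for Sftpc and 0.07 for Cxcl15. Napsa had 0.110 and 0.122 UMIs per lung spot, and in counts so sparse a weak rho is no finding. With the tumour gene share of the 6 neighbouring spots in place of the spot's own, rho was -0.04 and -0.56.

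Among themselves most of the 8 genes varied together over spots, while Napsa was too sparse to judge. The rho of a gene with the sum of the other 7 was 0.54 in Mouse_627 and 0.85 in Mouse_628 for Sftpc, 0.43 and 0.81 for Sftpa1, 0.46 and 0.70 for Slc34a2 and 0.35 and 0.67 for Cxcl15. It was lower for Lamp3 (0.27 and 0.53), Sftpd (0.22 and 0.48), Abca3 (0.14 and 0.30) and Napsa (0.07 and 0.19). Among 2842 genes with at least 0.5 UMIs per spot in both lungs, the 10 others most like the 8 genes by this measure were Ager, Inmt, Epas1, Gpx3, Ace, Npc2, Tns1, Hopx, Adgrf5 and Calcrl, with mean rho over both lungs from 0.54 to 0.40. Ager, a receptor abundant on alveolar type 1 cells, came ahead of Cxcl15, at 0.36 and 0.72. Hopx is also known from type 1 cells, and Calcrl, Ace and Epas1 from lung endothelium. Npc2, a cholesterol carrier of lysosomes and of surfactant, differed from the rest in the PT, where it had 1928 and 2071 CPM against 1212 and 2124 CPM in the lungs.

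Other genes of type 2 cells were taken as lists. Between lung and PT, 13 of 19 other type 2 markers tested, 2 of 11 transcription factors, 5 of 18 genes of lamellar bodies and secretion and 4 of 21 lipid synthesis genes were called higher in the lung, where 6.31% of all genes were, with medians of 3.02, 1.96, 0.86 and 0.34 on the log2 scale. Of the transcription factors 1, Sox9, was called lower in the lung, where 1.15% of all genes were. With the mouse as a block 15, 4, 6 and 5 genes of these lists were called higher, in the same order, where 9.17% of all genes were. Between bin 4 and bin 0 they were compared by the same edgeR fit as above. Of the 19 other type 2 markers, 14 were called lower and 1 higher, where 22.5% and 15.3% of all genes were, with a median log2 fold change of -1.45. In bin 4 of Mouse_627 3 UMIs are worth 57.0 CPM, so values of single genes there are coarse. Among the most abundant markers, Rnase4 went from 291 to 171 CPM in Mouse_627 and from 305 to 158 CPM in Mouse_628. Trf, which encodes transferrin, went from 245 to 209 and from 279 to 125 CPM, while Fgfr2, a growth factor receptor that was also high in the PT (652 and 616 CPM), rose from 96.3 to 190 and from 121 to 404 CPM. Chil1, a chitinase-like protein, went from 824 to 760 CPM and from 739 to 132 CPM and was not called (adjusted p = 0.0928 by edgeR). Of 11 transcription factors of type 2 cells, 7 were called lower and 1, again Sox9, higher (Sox9 was named after its values were seen). Nkx2-1 itself was called lower, and went from 113 to 24.5 CPM in Mouse_628 and from 95.8 to 76.0 CPM in Mouse_627, where a few UMIs in bin 4 cannot show a difference (log2 fold change -2.18, standard error 0.38, adjusted p = 0.00212 by edgeR). The more widely expressed factors Stat3, Etv5 and Klf5 were not called (adjusted p-values of 0.0855, 0.141 and 0.759 by edgeR).

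Of 17 genes tested for lamellar bodies, surfactant processing and secretion, 8 were called lower and 0 higher, with a median of -0.60. Sec14l3, a lipid-binding protein of lung epithelium that is on the airway list too, fell from 794 to 475 CPM in Mouse_627 and from 740 to 76.0 CPM in Mouse_628. Adgrf5, a receptor that limits surfactant levels, fell from 532 to 285 and from 452 to 91.5 CPM, and the lipid flippase Atp11a from 417 to 304 and from 339 to 162 CPM. Nedd4, a ubiquitin ligase, was not called (0.75, adjusted p = 0.153 by edgeR). Genes of lipid synthesis, which many cell types use, were called lower in 2 and higher in 4 of 21 cases, where 22.5% and 15.3% of all genes were, with a median of 0.10. With the mouse as a block 2 were lower and 6 higher, where 2874 and 1883 of 12664 genes were. Fasn, the fatty acid synthase, went from 119 to 361 CPM in Mouse_627 and from 205 to 391 CPM in Mouse_628 (adjusted p = 0.0560 by edgeR). Acly, Pgs1 and the desaturase gene Scd1 were not called (0.15, -0.27 and -0.33), and Scd1 moved in opposite directions, from 163 to 380 CPM in Mouse_627 and from 223 to 123 CPM in Mouse_628.

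Genes of other cell types moved with the bins as well, and their part in the decrease of the 8 genes was not tested. The counts below stand against 22.5% of all genes called lower and 15.3% called higher. Of 12 type 1 cell genes 11 were called lower in bin 4 (median -2.09), among them Ager, Hopx and Clic5 but not Emp2, and of 12 endothelial genes 11 (median -2.10), among them Tmem100, Calcrl, Cdh5 and Cldn5. Of 9 genes tested for alveolar macrophages and surfactant clearance 8 were lower (median -1.97), among them Car4, Csf2ra, Lpl and Csf2rb, and of 10 airway genes 6 (median -2.56), among them Cyp2f2 and Scgb3a2 but not Reg3g. Of 10 neutrophil genes 8 were lower (median -2.25), including Ngp and Retnlg, and their summed level went from 87145 to 39951 CPM in Mouse_627 and from 71436 to 7855 CPM in Mouse_628. S100a8 and S100a9, the most abundant of them, were not called (adjusted p-values of 0.101 and 0.113 by edgeR). Of 6 genes tested of mature dendritic cells, which also make Lamp3, 2 were higher and 1 lower. Fscn1, which the PT held too (347 and 301 CPM), rose from 36.6 to 285 CPM in Mouse_627 and from 94.5 to 426 CPM in Mouse_628. Relb and Cd83 were not called, and Ccr7 went from 21.2 CPM to 0 UMIs, which allows up to 57.0 CPM, in Mouse_627 and from 3.64 to 2.52 CPM in Mouse_628. Of 3 mammary epithelial genes tested, Krt8 was higher and Epcam and Elf5 were lower. None of 5 heart muscle genes was called, and their sum went opposite ways, with log2 ratios of 1.13 (0.56 to 1.65) in Mouse_627 and -1.38 in Mouse_628. With the mouse as a block 4 heart muscle genes were called lower, where 22.7% of all genes were. So were 9 of 10 airway genes, 7 of 9 alveolar macrophage genes and 0 of 6 dendritic cell genes. Counts of the other lists in this paragraph did not change.

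**Figure D5:**
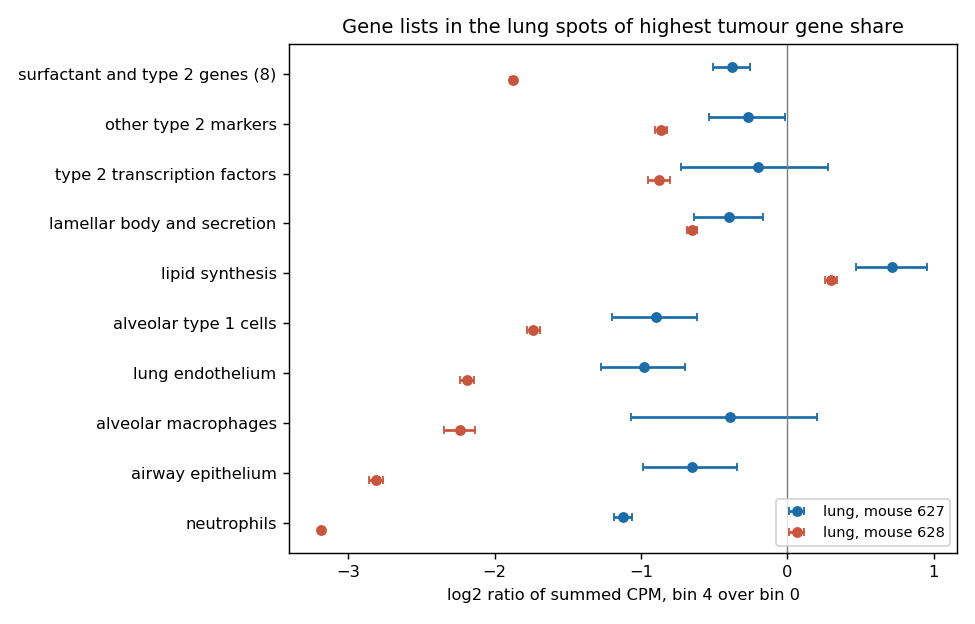
Log2 ratio of the summed CPM of each gene list in bin 4 over bin 0 of lung spots, for Mouse_627 (blue) and Mouse_628 (red), with bars for the exact 95% interval from counting error. In Mouse_628 the 8 surfactant and type 2 genes stand at -1.88, beside -1.74 for type 1 cell genes and -3.18 for neutrophil genes, and the lipid synthesis genes lie above 0 in both lungs.

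Set against these lists, the 8 genes had a near constant ratio to type 1 cell genes in the lung of Mouse_628, with 4.14, 4.43, 4.63, 4.59 and 3.75 of their UMIs for each UMI of the type 1 genes in bins 0 to 4. In Mouse_627 the ratio was 3.56, 3.82, 3.65, 4.03 and 5.10. Against endothelial genes it was 3.83 in bin 0 and 4.76 in bin 4 of Mouse_628, and 3.27 and 4.95 in Mouse_627. Against neutrophil genes it went from 0.157 to 0.389 in Mouse_628 and from 0.145 to 0.243 in Mouse_627. Against the other type 2 markers it went from 4.06 to 2.01 in Mouse_628 and from 4.45 to 4.11 in Mouse_627. The sum of that list went from 2762 to 1518 CPM in Mouse_628. It includes Fgfr2, high in the PT too, which rose from 121 to 404 CPM there, and the ratio without Fgfr2 was not computed. On the log2 scale the decrease of the 8 genes in Mouse_628 was thus near that of type 1 genes, and smaller than that of neutrophil genes, and these differences were not tested. The summed other type 2 markers had a log2 ratio of -0.86 in Mouse_628, while in the fit over both lungs their median log2 fold change was -1.45 and that of the 8 genes -1.42.

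Airway tissue was also low in the 8 genes. Spots in which airway genes took over 2% of UMIs had 4811 CPM of them in Mouse_627 (11 spots) and 2338 CPM in Mouse_628 (47 spots), against 12451 and 7315 CPM in the remaining spots. Spots in which heart muscle genes took over 0.5% of UMIs had 11387 CPM in Mouse_627 (21 spots) and 3909 CPM in Mouse_628 (89 spots). The latter also held 554 CPM of the tumour genes, and the 13 of them in bin 0 had 8629 CPM of the 8 genes. The log2 ratio of bin 4 over bin 0, which was -0.38 in Mouse_627 and -1.88 in Mouse_628, was -0.38 and -1.88 without the heart muscle spots and -0.38 and -1.91 without the airway spots.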

How the data were processed

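Visium libraries of 4 sections were read, a PT and a lung section from each of 2 mice. Per the file headers and labels, the authors made the deposited UMI counts per gene and spot with Space Ranger 2.0.0 against mm10, on probe-based libraries, so the count of a gene rests on its probe pairs. No normalisation had been applied to these counts. Spots under tissue with over 200 detected genes were kept (Python 3.11.15, numpy 2.4.6, scipy 1.17.1, pandas 2.3.3), and UMIs were summed per section and per bin of tumour gene share. Depth was 10890154 to 30240176 UMIs per section. Barcodes shared between sections are slide positions, not shared cells. Doublets have no meaning for spots and no caller was run. No column of an unmapped sample was found (0). CPM carry exact Poisson intervals, shares of spots exact Clopper-Pearson intervals and ratios exact conditional binomial intervals, at 95%. A count of 0 was given the limit of 3 counts.

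Sums were compared by edgeR 4.0.16 (R 4.3.3) with TMM factors, filterByExpr and the quasi-likelihood test, adjusted by Benjamini-Hochberg over all genes tested, at 0.05. Standard errors given for edgeR were derived from the test, as the log2 fold change without its sign over the square root of the F statistic. Lung and PT, and the bins of a lung, come from the same animal, so mouse numbers pair the samples; deviations of same-numbered sums correlated at -0.15 for lung and PT (10333 genes) and at 0.35 for the bins (9822 genes). On simulated counts over 19465 genes with 4-fold changes, the fit recovered 91.8% of changed genes for lung against PT and 93.5% for the bins. With the block it recovered 89.8% and 86.0%. Unchanged genes called numbered 7 and 4, and with the block 7 and 9. The simulated mice did not differ and all genes had the same dispersion. The lungs here differ, so these rates do not give the power of the fits of the data. Alternatives were DESeq2 1.42.0, the mouse as a block, library sizes alone, no filter, all spots, other bins and share genes, thinning, spots of airway or heart left out and each mouse left out. Permutation of 2 against 2 sections cannot reach 0.05, and intervals cover counting error only.

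The genes, lists and tests were chosen with earlier results of these data known. All 9 genes were to be described, with up to 4 genes of each list by mean CPM over both lungs, and the 10 other genes whose CPM over spots is most like the summed genes, among those with at least 0.5 UMIs per spot in both lungs. Loci are those of the annotation of GRCm38, and promoter sequences those of RefSeq (GRCm38.p6). CG pairs and motifs were counted by exact match.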

Additional observations from a re-analysis of the deposited data

How the results depend on the processing

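Of 263 values recomputed under alternatives, 198 stayed on their side of the threshold or within the spread of the value, and 30 moved. A further 22 fell short of the threshold, 12 came to pass it and 1 that had been called changed sign. The cause of these changes was not tested. For a value with 1 mouse left out, the spread was that between the 2 mice. Staying within it was thus largely fixed in advance and is no sign of stability. With library sizes alone 5 of the 8 genes were called higher in the lung in place of 8, and every other fit of lung against PT called 8, among them the fit with the mouse as a replicate block and, since same-numbered sections deviated in opposite ways, one with crossed pairing (1818 genes higher and 747 lower). Over all genes, 963 were higher and 176 lower in the lung, against 1400 and 417 with the block, 1436 and 1208 by DESeq2, 2674 and 1704 with bin 0 of the lung only, 1666 and 356 without the filter and 283 and 45 with library sizes alone, which moved the median log2 fold change from -0.0046 to -0.31. Of the 8 genes, 4 were called lower in bin 4, against 7 with the replicate block, 1 by DESeq2 (Napsa had no adjusted p), 1 by neighbouring spots, 1 without Mmp3 in the share, 0 with groups drawn within each lung, 0 with bins 3 and 4 joined (edgeR, which then called 0 of all 12863 genes lower, and 2 of the 8 were at an unadjusted p under 0.05) and 7 with those joined and blocked (2493 of 12863 genes lower), although all 8 log2 fold changes were negative in every fit. Without the filter 6 of the 8 were called lower (2683 of 18651 genes), and 6 in bin 4 against bin 1 (2320 of 11855 genes). With library sizes alone it was 3. Over all genes, 1934 were higher and 2851 lower in bin 4, against 127 and 329 by DESeq2, 567 and 1006 thinned, 1246 and 1356 by neighbouring spots, 866 and 1928 without Mmp3 and 2888 and 2275 with library sizes alone, which moved the median from -0.07 to 0.19. With 1 mouse left out no test could be fitted, and without Mouse_628 the log2 ratios of 3 genes changed sign, to 0.38 for Sftpd, which had been called, 0.33 for Cxcl15 and 0.22 for Abca3. Without Mouse_627 they were -1.77, -2.10 and -0.99. The log2 ratio of the 8 genes in Mouse_627, -0.38, was -0.20 with groups drawn within the lung, -0.20 without Mmp3, -0.55 thinned (from 1 spot in bin 4, interval -1.33 to 0.13), -0.091 without Sftpc and -0.78 as UMIs per spot. In Mouse_628, -1.88 became -1.92, -1.86, -1.73, -1.83 and -0.35 under the same settings. It was -1.80 without Csf3, -1.92 without Hmga2, -1.91 without airway spots, -1.27 with bins 3 and 4 joined and -1.94 against bin 1. By neighbouring spots it was -1.24, a setting that left 23 spots in bin 0 of Mouse_628 and 6 in bin 4 of Mouse_627. Downward steps made up 41 to 51 of 64 steps between bins, against 45. The mean rho over both lungs, -0.30, was -0.53 without Mouse_627 and -0.06 without Mouse_628, and -0.24 to -0.30 otherwise. Bin 4 of Mouse_627, with 11 spots, limits what that lung can show.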
